A study of Drosophila melanogaster with 12 samples.

Results

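Knockout of the corpora allata in fertile Drosophila melanogaster females was measured by comparing 3 CAKO arrays with 3 wildtype arrays, out of 12 arrays of whole females in the series. All genes with a probe set of their own were taken, 9968 genes tested of 11982 on the array, and none was chosen for its response. In CAKO the driver Aug21-Gal4, together with UAS-GFP, expresses NIPP1 from UAS-NIPP1 in the gland to ablate it, while wildtype carries none of these transgenes and lines with a single transgene were not analysed here. The array legend of the study gives wDah as the background of both CAKO and wildtype, whereas the deposited design gives the fertile wildtype as wDah/w1118. The background of the fertile pair is therefore uncertain. The 6 remaining arrays hold sterile females with the dominant OvoD1 allele, which blocks egg development: 3 of CAKO_ovoD and 3 of the ovoD mutant with intact corpora allata. Females were 15 days old by the sample labels and 14 days old by the growth text, came from 4 cages of 125 females per genotype, and gave 1 RNA per array from 25 pooled whole females. The knockout was checked on jhamt, the methyltransferase gene of the last steps of juvenile hormone synthesis, which read 3.26, 2.79 and 3.34 in CAKO against 4.61, 4.71 and 4.64 in wildtype (log2 expression), without overlap.

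Juvenile hormone (JH) is a sesquiterpenoid made by the corpora allata, a gland attached to the insect brain. In adult females JH acts with ecdysone on yolk production in fat body and ovary, on uptake of yolk by oocytes and on maturation of the fat body. It signals through the receptors Met and gce, and the zinc finger gene Kr-h1 is the best known direct target. RNA of whole females mixes ovary, gut, muscle, fat body and other tissues, so each value below is a mixture.

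Of the 9968 genes, 400 were higher in CAKO (4.01%) and 242 were lower (2.43%), together 6.44%, at a Benjamini-Hochberg adjusted p under 0.05 in limma and a change of at least 1.5-fold (called, from here on). Most changes were moderate: the median was 1.88-fold among genes called higher and 1.89-fold among genes called lower, and 172 and 113 genes passed 2-fold, 38 and 46 genes 4-fold. The arrays of both genotypes did not overlap for 3267 genes (32.8%), and for 397 of the 400 and 232 of the 242 called genes. The arrays were alike in overall level, with medians of 2.86 to 2.88 in CAKO and 2.91 to 2.92 in wildtype and 47.3% to 47.5% of probe sets in CAKO and 47.2% in wildtype within 0.2 of the floor of the background adjustment (2.13). The SD among CAKO arrays was above 1 log2 unit for 15 genes called lower and 1 gene called higher, and among wildtype arrays for 3 and 1 genes. The balance of rises and falls rests on the scale: with arrays centred on 39 muscle and photoreceptor genes, which moved every difference by -0.18, 296 genes were higher and 563 lower, whereas centring on the array median moved differences by -0.01 and gave 406 and 271. The 39 genes are not a neutral reference. Of 21 muscle genes 3 were called higher (median 0.22), and of 18 photoreceptor genes 2 (median -0.01). Which scale is right was not tested, so calls lost under this centring show only dependence on the scale.

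CG34040 read 11.57, 10.89 and 11.40 in CAKO against 4.60, 5.36 and 4.07 in wildtype (log2 difference 6.61 ± 0.32 SE, 97.6-fold, adjusted p = 7.31e-06), the largest rise of any gene called. Lsp2, a hexamerin that stores amino acids in the larval fat body, read 8.06, 8.50 and 8.04 in CAKO against 4.34, 4.05 and 3.14 in wildtype (20.5-fold), and Obp99b, an odorant-binding protein gene that fat body also transcribes, read 9.34, 9.60 and 8.27 against 4.28, 4.74 and 3.46. Neither overlapped between genotypes. Further rises were those of CG1304, a serine protease gene by sequence (23.5-fold), CG31955 (11.8-fold), CG15254 (10.7-fold), CG13311 (10.5-fold), acs (10.4-fold), CG6012 (9.71-fold), CG2444 (9.01-fold), CG15534 (8.91-fold) and CG15263 (8.01-fold), the last not called when only the 6 fertile arrays were fitted. CG13032 lay at the floor on all 3 wildtype arrays and was at least 8.08-fold higher in CAKO, at 3.95, 5.50 and 6.0.

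**Figure D1:**
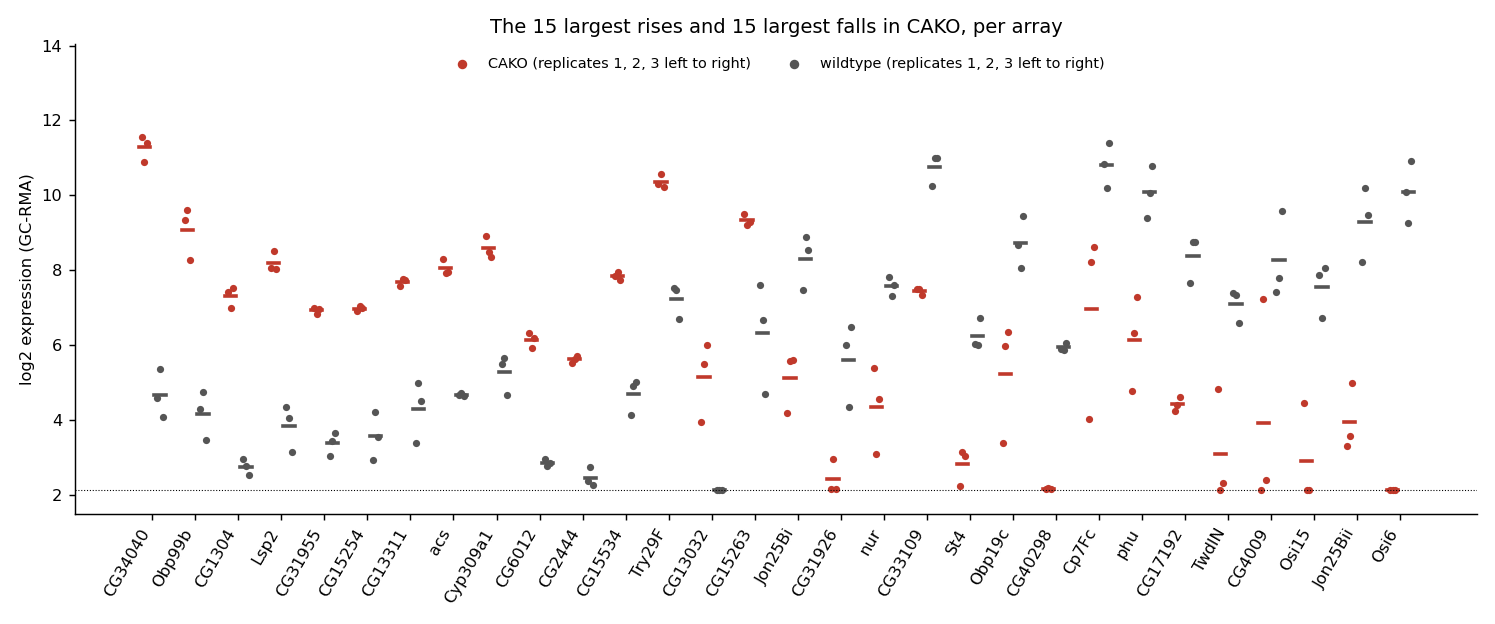
The 15 largest rises (left) and 15 largest falls (right) among called genes without overlap between arrays, in order of difference, as log2 expression on each array (y axis) with CAKO left of wildtype, short bars for the means of 3 arrays and a dotted line at the floor (2.13). CG34040 stands at 10.89 to 11.57 in CAKO against 4.07 to 5.36 in wildtype, and Osi6 at 2.13 in CAKO against 9.27 to 10.91 in wildtype.

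Among the falls several genes reached or neared the floor in CAKO. Osi6, of a family of insect membrane proteins, read 2.13 on all 3 CAKO arrays against 10.09, 9.27 and 10.91 in wildtype, at least 248-fold lower (adjusted p = 2.49e-06). Its relative Osi15 read 4.45, 2.13 and 2.13 in CAKO against 7.86, 6.72 and 8.07 in wildtype (adjusted p = 0.00106). TwdlN, of the Tweedle family of cuticle proteins, read 4.82, 2.13 and 2.32 in CAKO against 7.40, 7.35 and 6.58 in wildtype, a call lost when only the 6 fertile arrays were fitted. In CAKO replicate 1 was the highest array for Osi15, TwdlN and nur (5.39, 3.08 and 4.55 in CAKO against 7.83, 7.30 and 7.61 in wildtype), and even there it lay below every wildtype array. Of the 12 Osiris genes tested, Osi6 and Osi15 were the only genes called, and 5 were called lower without wildtype replicate 2. Falls also included those of CG40298 (at least 13.7-fold, 2.15 to 2.19 in CAKO against 5.87 to 6.05 in wildtype), CG33109 (7.50, 7.50 and 7.33 in CAKO against 10.24, 11.00 and 11.01 in wildtype) and the sulfotransferase gene St4 (2.25, 3.14 and 3.05 in CAKO against 6.03, 6.0 and 6.72 in wildtype). Obp19c (11.2-fold) and phu (15.6-fold) were scattered in CAKO, at 3.38 to 6.34 and 4.77 to 7.29, against 8.05 to 9.44 and 9.40 to 10.79 in wildtype, and Obp19c was not called when only the 6 fertile arrays were fitted. The peroxidase-like gene CG4009 was called at -4.34 with CAKO replicate 2 near wildtype (7.24 against 7.41, 7.80 and 9.57), and its call was lost when any of 11 arrays was left out.

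Of the 242 genes called lower, 19 (7.85%) lay at the floor on all 6 sterile arrays. Among all 8082 genes that were above the floor on each wildtype array the share was 0.804%. These shares are a description and no test, because the sterile arrays entered the estimate of the spread and genes at the floor add almost none, which makes a call easier. Of the genes named here CG4009, TwdlN, CG31926 and Cp7Fc were not called when only the 6 fertile arrays were fitted, while Osi6, Osi15, St4 and Cpr47Eg were. These 19 include Osi6, Osi15, TwdlN, St4, CG31926, the cuticle gene Cpr47Eg and the chorion gene Cp7Fc.

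The 63 lists of tissue markers and pathways held 148 of the genes called higher and 56 of those called lower. In 21 lists the genes called were all higher, in 11 all lower, in 15 they went both ways, and 16 lists had no gene called. The plot of gene lists orders the main ones by direction. Against backgrounds of 4.01% higher and 2.43% lower, the lists with many rises included digestion of carbohydrates (9 of 12 genes), the takeout family (12 of 21), the adult fat body (10 of 24) and the ecdysteroid kinase-like family (17 of 44), and those with many falls included eggshell genes (8 of 23) and yolk protein genes (2 of 3).

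**Figure D2:**
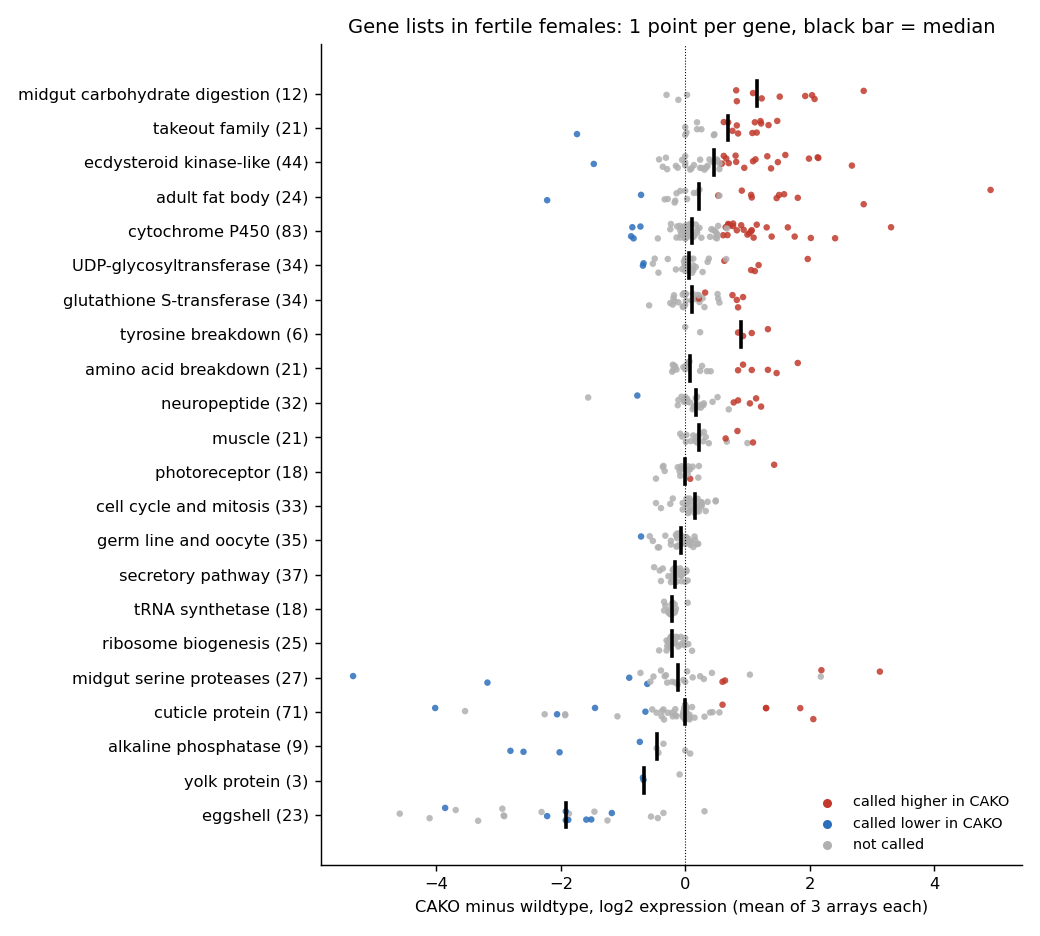
Log2 difference of CAKO minus wildtype (x axis, means of 3 arrays each) for every tested gene of 22 lists (y axis, number of genes in parentheses), with genes called higher in red, genes called lower in blue, others in grey and a black bar at the median of each list. The medians run from -1.92 in eggshell to 1.16 in carbohydrate digestion, while the photoreceptor list stands at -0.01.

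The lists of the hormone axis itself held few called genes, all lower. Their shares called lower were 8.33% for JH synthesis and breakdown and 12.5% for JH and ecdysone signaling, against 2.43% over all genes. Kr-h1 read 7.52, 7.72 and 7.69 in CAKO against 9.31, 8.94 and 10 in wildtype (log2 difference -1.77 ± 0.23 SE, 3.42-fold lower, adjusted p = 0.00106). The CAKO arrays lay close together, below every wildtype array. Among 12 genes of JH synthesis and breakdown jhamt was the only gene called (-1.53 ± 0.22 SE, 2.88-fold lower, adjusted p = 0.00213). Of 24 genes of JH and ecdysone signaling 3 were lower and none higher: Kr-h1, spo and br. The receptor genes Met (4.26, 4.22 and 4.25 in CAKO against 4.09, 4.25 and 4.88 in wildtype) and gce (2.97, 3.03 and 3.03 against 2.98, 2.80 and 2.86) overlapped between genotypes; both were picked once their values were known. The P450 gene spo, which acts early in ecdysone synthesis, was lower at 2.80, 2.94 and 2.87 against 3.17, 4.25 and 3.75 in wildtype, a call lost without wildtype replicate 3 or any CAKO replicate (-1.13 to -0.59 over all fits without 1 array), and for br the call came from a probe set other than the most abundant (-0.32).

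Ovary products fell, with wide scatter among the CAKO arrays. Eggshell genes, which follicle cells transcribe late in egg development, were lower in mean for 22 of 23 genes, with a median log2 difference of -1.92, and the 2 sets of arrays did not overlap for 19 genes. Of the 23 genes 8 were called, all lower. Their mean log2 expression was 7.79, 9.68 and 8.49 in CAKO against 10.45, 10.51 and 11.31 in wildtype, so that each CAKO array lay below each wildtype array. A lower level in whole females can come from fewer cells of a type or from less RNA per cell, and these cannot be told apart here or in the lists that follow.

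The chorion genes disagreed on which CAKO array was highest. Cp38 and Cp36 on the X chromosome read 9.37, 13.76 and 8.75, and 9.85, 14.10 and 10.35 in CAKO, against 13.38, 13.60 and 14.89, and 13.92, 14.00 and 15.12 in wildtype, so that replicate 2 lay inside the wildtype range. Cp15 on chromosome arm 3L instead read 7.33, 10.98 and 13.31 in CAKO against 14.11, 14.62 and 13.97 in wildtype, highest in replicate 3. On the same arm Cp16 and Cp19 read lowest in replicate 3 (8.59 and 9.01) against 11.66 to 12.56 and 12.80 to 13.60 in wildtype. Both yellow-g (2.20, 8.64 and 3.08) and yellow-g2 (2.16, 8.11 and 5.23) reached the floor in CAKO replicate 1, against 8.30 to 10.81 and 8.43 to 10.73 in wildtype. Replicate 2 was the highest CAKO array for 18 of the 23 genes, replicate 3 for 4 and replicate 1 for 1. Of these genes Cp38, Cp36, Cp15, Cp19, yellow-g and yellow-g2 were not called and were chosen with their values known.

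The vitelline membrane gene Vm32E read 9.21, 10.62 and 10.07 in CAKO against 11.65, 11.82 and 12.18 in wildtype (3.78-fold lower, adjusted p = 0.00326). The chorion gene dec (-1.92, adjusted p = 0.00916) and psd, of the vitelline membrane (-1.88, adjusted p = 0.00502), were called in every fit that left out 1 array. The call of Cp16 (-2.22) was lost without wildtype replicate 3, and those of Cp7Fc (-3.86), Vm26Aa (-1.51) and Vm34Ca (-1.18) without any of 8 or 9 arrays. The count of 8 became 14 without CAKO replicate 2, 5 without wildtype replicate 1, ovoD mutant replicate 1 or CAKO_ovoD replicate 1, 3 without wildtype replicate 3, and 1 when only the 6 fertile arrays were fitted, while centring on the array median gave 15 and on muscle and photoreceptor genes 21. The sterile arrays, which also entered the estimate of the spread, held several eggshell genes at low and even levels, for example Cp15 at 2.99 to 3.03 and yellow-g at 2.20 to 2.22. Others were higher or varied there. Vm34Ca read 5.05 to 5.82 in CAKO_ovoD against 7.68 to 8.62 in the ovoD mutant and was called lower in that pair too (-2.56, limma adjusted p = 0.00183). Vm26Aa read 3.78 to 4.61 against 4.62 to 6.19.

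**Figure D3:**
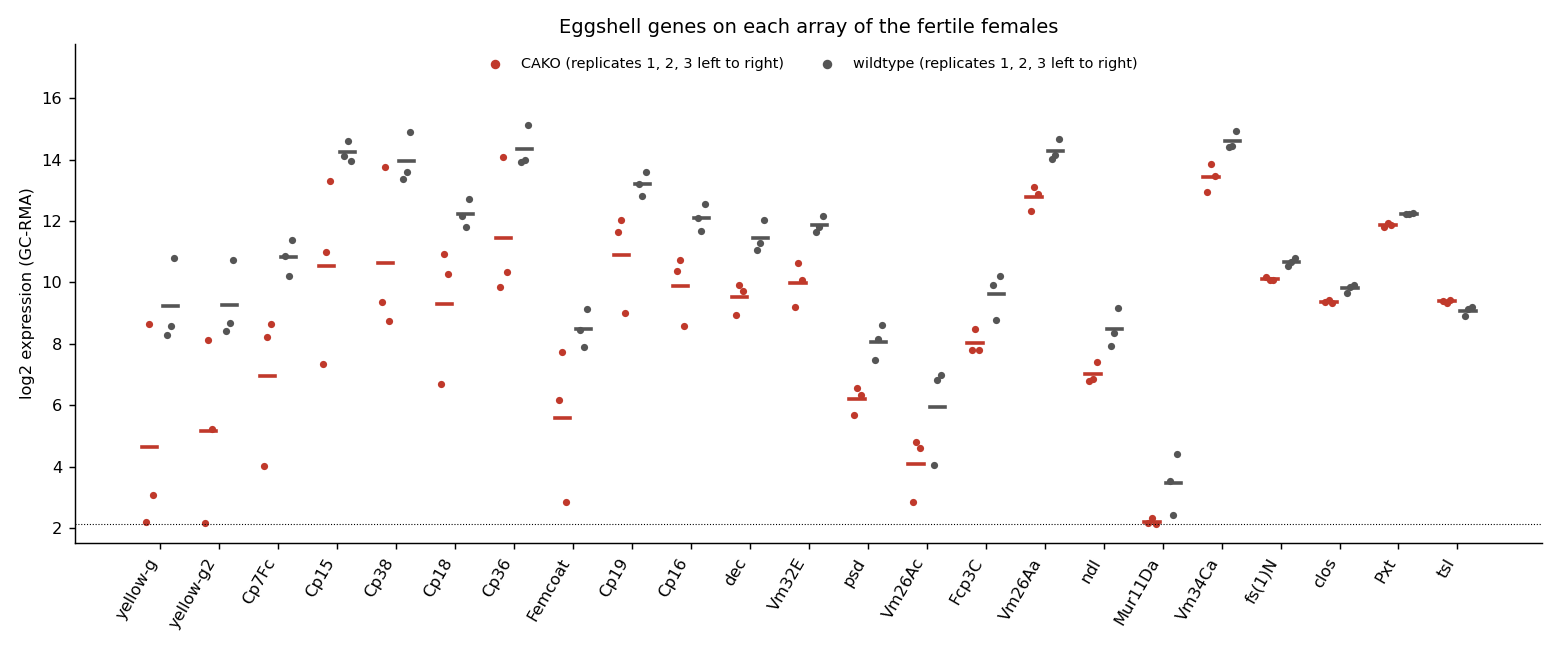
Log2 expression (y axis) of the 23 eggshell genes tested, ordered by difference, on each CAKO array (left, red) and each wildtype array (right, grey), with bars for the means of 3 arrays and a dotted line at the floor. CAKO replicate 2 is the highest CAKO array for 18 genes, while Cp15 is highest in replicate 3 at 13.31.

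Other genes of reproduction moved less or both ways. Of 3 yolk protein genes 2 were called, both lower. Yp1, named with its values known, read 15.89, 15.98 and 15.87 in CAKO against 15.98, 15.98 and 16.03 in wildtype. On the sterile arrays Yp1 read 16.13 to 16.2, so all its values lay close together at a high level. Whether a fall of Yp1 could show at that level was not tested. The genes Yp3 (14.83, 15.16 and 14.85 in CAKO against 15.54, 15.62 and 15.69 in wildtype) and Yp2 (14.36, 14.65 and 14.37 against 14.95, 15.11 and 15.35) were 1.60-fold lower, the call of Yp2 being lost without wildtype replicate 3 (-0.57) or when only the 6 fertile arrays were fitted. The study reported, by quantitative PCR, less mRNA of each yolk protein gene in CAKO females than in wildtype. Germ line and oocyte genes showed a median of -0.06 over 35 genes, with the synaptonemal complex gene c(2)M as the only call (-0.71, adjusted p = 0.00104). Of 8 serine protease and other genes of the spermatheca, the sperm storage organ, 2 were lower: Send1 read 7.57, 7.44 and 8.09 in CAKO against 9.12, 9.29 and 9.55 in wildtype, and CG17239 read 5.31, 6.02 and 6.72 against 8.16, 8.25 and 8.37. Another 2 were higher, CG32277 (7.72, 7.97 and 7.98 in CAKO against 6.72, 7.32 and 6.86 in wildtype) and CG31681 (10.87, 10.91 and 10.87 against 9.75, 10.21 and 10.36). Thus no single shift described this organ's genes, and the 2 rises were not called when only the fertile arrays were fitted. None of 8 genes of the male reproductive tract was called, the rest of the 24 on the array having been left out for low values. A call compares CAKO with wildtype, so its absence cannot show the sex of the samples. The mean over the 8 genes was 3.01, 3.04 and 3.04 in CAKO against 3.06, 3.02 and 2.97 in wildtype.

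Genes of the adult fat body, the insect counterpart of liver and adipose tissue, rose more often than they fell: of 24 genes, 10 were higher and 2 lower, with a median of 0.22 (0.03 when centred on muscle and photoreceptor genes). Pepck1, which commits carbon to gluconeogenesis, read 14.23, 14.13 and 14.02 in CAKO against 12.88, 12.89 and 13.42 in wildtype (2.09-fold, adjusted p = 0.00267). Tsf1, the iron carrier transferrin of hemolymph, read 13.50, 13.47 and 13.31 in CAKO against 12.06, 11.98 and 11.70 in wildtype (2.85-fold, adjusted p = 2.15e-05). The spread among replicates of these abundant genes was small beside the differences. In the other direction fit, a female-specific secreted protein that signals protein intake, read 8.53, 9.24 and 9.05 in CAKO against 10.75, 11.36 and 11.36 in wildtype (4.65-fold lower, adjusted p = 0.00173), and Lsd-1, a perilipin of lipid droplets, was 1.63-fold lower, a call lost when only the 6 fertile arrays were fitted. Among genes of fatty acid and triglyceride synthesis 3 of 17 were lower and none higher: SCAP and S1P, which activate the lipid regulator SREBP (2.20-fold and 1.78-fold lower), and Agpat4, an acyltransferase (1.58-fold lower). Genes of lipid and sterol transport included LpR2, a lipophorin receptor (11.66, 11.52 and 11.52 in CAKO against 10.90, 10.75 and 10.94 in wildtype, 1.62-fold higher), and Npc2b, a sterol-binding protein (1.73-fold higher). With Karl, whose call was lost without any of 9 arrays, 3 of 19 such genes were called, all higher, and of these only Npc2b with arrays centred on muscle and photoreceptor genes. eloF, an elongase of female cuticular hydrocarbons, was 2.12-fold lower (10.93, 11.07 and 10.88 in CAKO against 11.84, 12.18 and 12.13 in wildtype).

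The takeout family, secreted carriers of small hydrophobic molecules that include the Jhbp genes named for relatives that bind JH in moths, rose as a group: 12 of 21 genes were higher and 1 lower, with a median of 0.69 (0.51 with arrays centred on muscle and photoreceptor genes). The mean over the family was 8.04, 8.11 and 7.96 in CAKO against 7.43, 7.53 and 7.41 in wildtype. The list does not include takeout itself, whose mRNA the study reported as not different between wildtype and CAKO. CG7968 read 9.75, 9.81 and 9.56 in CAKO against 8.21, 8.49 and 8.0 in wildtype (2.78-fold, adjusted p = 5.76e-05), and Jhbp11 read 8.06, 8.04 and 7.76 against 6.30, 6.78 and 6.77 (2.53-fold, adjusted p = 9.06e-04). Jhbp5 went the other way at 7.43, 8.29 and 8.54 in CAKO against 10.15, 9.28 and 10.04 in wildtype (3.34-fold lower), a call lost without wildtype replicate 1 or 3 (-2.01 to -1.41 over all fits without 1 array). Some members lie side by side: CG7916, CG7953 and CG7968, which follow each other on 2L, were 2.22-fold, 2.33-fold and 2.78-fold higher, as was their neighbour CG8997, not on the list (2.34-fold), and Jhbp3, Jhbp2 and Jhbp1, which follow each other on 3R, 1.62-fold, 2.11-fold and 1.70-fold higher. The call of CG7916 was lost when only the 6 fertile arrays were fitted, those of Jhbp3 and Jhbp1 with arrays centred on muscle and photoreceptor genes, and that of Jhbp3 also without wildtype replicate 1. Sequence similarity within such families may let a probe set read more than 1 gene.

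In the gut the enzymes of carbohydrate digestion rose together. Of 12 genes 9 were higher and none lower, a count that stayed at 9 whichever array was left out, and the median was 1.16. Maltases, alpha-glucosidases of the midgut that split disaccharides, lie side by side on 2R as Mal-A1 to Mal-A8. Mal-A8 read 12.72, 12.55 and 12.52 in CAKO against 10.85, 10.78 and 10.03 in wildtype (4.12-fold, adjusted p = 2.44e-04), and Mal-A4 read 9.06, 9.28 and 9.08 against 7.29, 7.51 and 6.38 (4.22-fold). Mal-A1, the most abundant, read 15.06, 14.97 and 14.99 in CAKO against 14.39, 14.23 and 13.93 in wildtype (1.77-fold). In gene order from Mal-A1 the log2 differences were 0.82, 0.83, 1.52, 2.08, -0.11, 1.23, 1.93 and 2.04, so that Mal-A5 alone was not called in a row of 8 genes. Mal-A5 read 10.73, 10.66 and 10.69 in CAKO against 10.73, 10.90 and 10.78 in wildtype and was named after its values were seen. The alpha-glucosidase gene tobi, a target of insulin and glucagon-like signals, read 14.17, 13.97 and 14.07 in CAKO against 11.62, 11.48 and 10.49 in wildtype (7.31-fold, adjusted p = 1.38e-04). Wildtype replicate 3 was the lowest array for each of Mal-A1, Mal-A2, Mal-A3, Mal-A4, Mal-A6, Mal-A7, Mal-A8 and tobi, and the CAKO arrays lay above the other wildtype arrays as well.

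**Figure D4:**
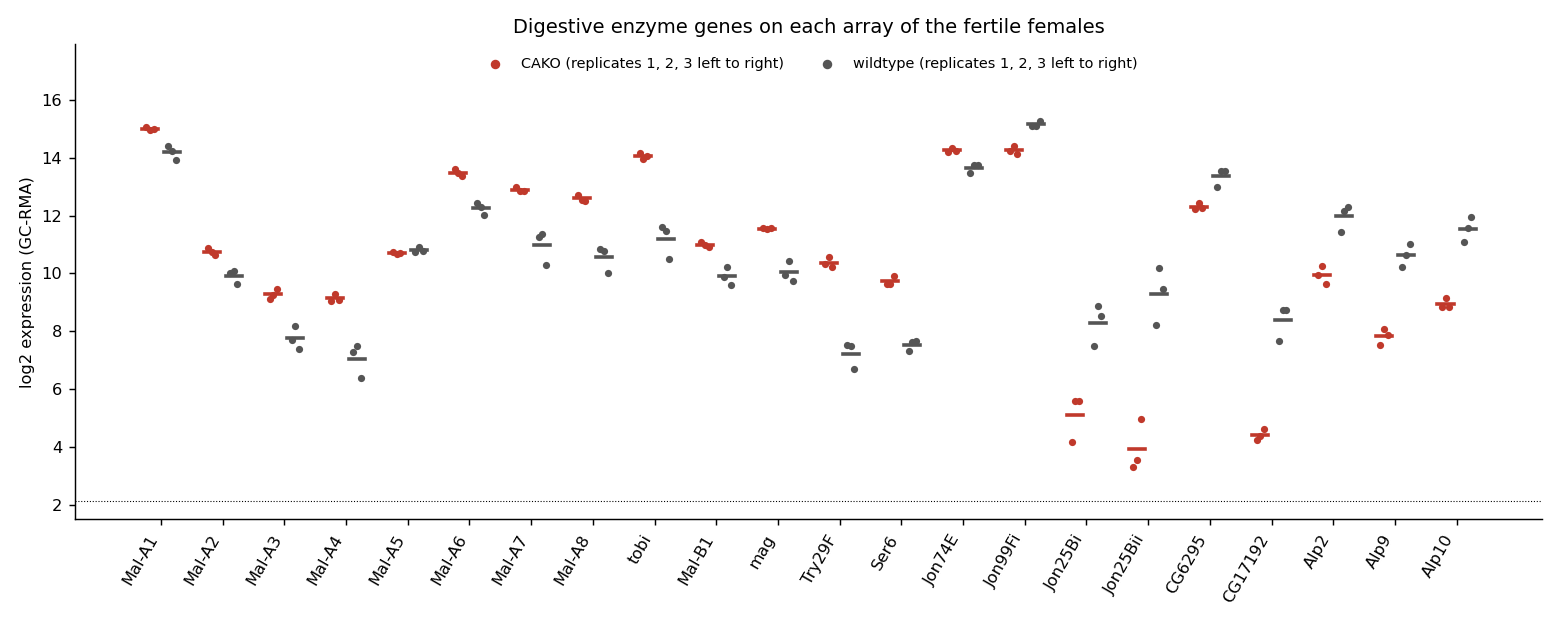
Log2 expression (y axis) of digestive enzyme genes on each CAKO array (left, red) and each wildtype array (right, grey), with bars for the means of 3 arrays and a dotted line at the floor. From left to right stand maltases in gene order, tobi and Mal-B1, the lipase mag, serine proteases, lipase-like genes and alkaline phosphatases; Mal-A8 is higher in CAKO at 12.52 to 12.72 against 10.03 to 10.85, and Alp9 lower at 7.52 to 8.08 against 10.23 to 11.03.

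Protein and lipid digestion did not share this direction. Of 27 serine proteases of the midgut 4 were higher and 4 lower, with a median of -0.12; the 4 rises became 2 without wildtype replicate 1, and the 4 falls 7 with arrays centred on muscle and photoreceptor genes. Try29F read 10.31, 10.57 and 10.21 in CAKO against 7.52, 7.48 and 6.70 in wildtype, and Jon25Bii read 3.30, 3.57 and 4.98 against 8.22, 10.20 and 9.47, both clear of overlap. At the top of the range Jon99Fi read 14.24, 14.41 and 14.14 in CAKO against 15.11, 15.09 and 15.27 in wildtype (1.86-fold lower, adjusted p = 0.00105). The lipase mag (magro), which the gut secretes and which also cleaves sterol esters, read 11.57, 11.52 and 11.56 in CAKO against 9.93, 10.42 and 9.75 in wildtype (2.86-fold higher, adjusted p = 6.81e-04). Lipase-like genes that follow each other on 3R fell instead: CG6295 read 12.23, 12.42 and 12.25 in CAKO against 12.99, 13.53 and 13.54 in wildtype, and CG17192 read 4.25, 4.39 and 4.61 against 7.67, 8.75 and 8.75 (15.7-fold lower). CG6296 and CG31077 of the same row were lower too (6.72-fold and 1.66-fold), CG6296 not without wildtype replicate 2, wildtype replicate 3 or CAKO replicate 2 (-3.59 to -2.32 over all fits without 1 array). The alkaline phosphatase list was added after the called genes had been read: 4 of 9 genes were lower and none higher. Alp9 read 7.52, 8.08 and 7.87 in CAKO against 10.23, 10.64 and 11.03 in wildtype (-2.81 ± 0.22 SE, 7.0-fold lower), its neighbour Alp10 read 8.83, 9.15 and 8.83 against 11.08, 11.58 and 11.94 (6.05-fold lower), and Alp2 and Alp5 were 4.07-fold and 1.66-fold lower, Alp5 not when only the 6 fertile arrays were fitted. No CAKO array reached the wildtype range in any of these 4 genes.

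Families that modify lipophilic compounds rose more often than they fell. The ecdysteroid kinase-like genes, named for an insect enzyme that phosphorylates ecdysteroids, had 17 of 44 genes higher, 1 lower and a median of 0.45 (0.27 with arrays centred on muscle and photoreceptor genes), and the 17 became 12 to 18 when single arrays were left out. CG16898 read 11.73, 11.62 and 11.18 in CAKO against 8.78, 8.76 and 8.94 in wildtype (6.41-fold, adjusted p = 1.09e-05), and CG10559 read 6.22, 5.83 and 6.20 against 4.14, 4.01 and 3.70 (4.39-fold). CHKov1, named after its values were seen, was the gene called lower (9.63, 9.48 and 9.78 in CAKO against 11.19, 10.92 and 11.19 in wildtype). Of 83 cytochrome P450 genes, which oxidize hormones and foreign compounds, 24 were higher and 4 lower, yet the median was 0.11, or -0.07 with arrays centred on muscle and photoreceptor genes, so the family was split between genes that rose and a majority near 0. Cyp28d1 read 12.44, 12.42 and 12.48 in CAKO against 10.71, 10.89 and 10.44 in wildtype (3.39-fold, adjusted p = 1.44e-05), and Cyp4e3 read 9.06, 8.96 and 8.75 against 6.41, 7.18 and 7.10 (4.07-fold). Glutathione S-transferases had 6 of 34 genes higher and none lower (median 0.11, or -0.07 under that centring), led by GstT4 at 12.63, 12.67 and 12.82 in CAKO against 11.79, 11.87 and 11.68 in wildtype (1.90-fold). UDP-glycosyltransferases had 5 higher and 2 lower of 34 (median 0.06, or -0.13 under that centring), led by Ugt37A2 at 11.21, 10.66 and 10.67 in CAKO against 8.87, 8.86 and 8.90 in wildtype (3.93-fold). The 2 falls became 1 without CAKO replicate 3 and 5 under that centring. AOX1, an aldehyde oxidase, was 2.56-fold higher (11.51, 11.36 and 11.43 in CAKO against 10.06, 10.13 and 10.03 in wildtype).

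Breakdown of tyrosine was a compact group of rises within amino acid metabolism. Of 21 genes of amino acid breakdown 6 were higher and none lower, at a median of 0.07 (-0.11 with arrays centred on muscle and photoreceptor genes). A list of tyrosine breakdown genes, added after the called genes had been read, had 4 of 6 genes higher at a median of 0.89. These are consecutive enzymes: Hpd makes homogentisate (11.97, 11.66 and 11.44 in CAKO against 10.50, 10.76 and 10.60 in wildtype, 2.1-fold, adjusted p = 8.37e-04), hgo oxidizes it (9.79, 9.50 and 9.13 against 7.91, 8.46 and 8.05, 2.52-fold, adjusted p = 0.00117), GstZ2 is related to the isomerase of the next step (1.81-fold, not called when only the 6 fertile arrays were fitted), and Faa cleaves fumarylacetoacetate (8.09, 8.11 and 7.84 against 6.94, 7.17 and 7.16, 1.90-fold). The CAKO and wildtype arrays did not overlap in any of them. In the methionine cycle Sam-S, which makes the methyl donor S-adenosylmethionine, read 13.20, 13.24 and 13.25 in CAKO against 14.09, 14.04 and 14.03 in wildtype (-0.83 ± 0.02 SE, 1.77-fold lower, adjusted p = 3.49e-07). Sardh, which demethylates sarcosine, read 5.18, 4.99 and 5.21 in CAKO against 4.25, 3.48 and 3.25 in wildtype (2.77-fold higher), and AhcyL2, related to adenosylhomocysteinase, was 1.85-fold higher. Gnmt, which consumes S-adenosylmethionine, read 6.30, 7.36 and 7.29 in CAKO against 5.10, 5.27 and 5.14 in wildtype (3.51-fold higher, adjusted p = 0.0202), not called without wildtype replicate 1, wildtype replicate 3, CAKO replicate 2 or CAKO replicate 3 (1.62 to 2.15 over all fits without 1 array).

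Of 32 neuropeptide genes 5 were higher and 1 lower, and the median was 0.17 (-0.01 with arrays centred on muscle and photoreceptor genes). Akh, the adipokinetic hormone that mobilizes lipid and sugar stores, read 7.32, 6.87 and 7.0 in CAKO against 5.85, 5.88 and 6.04 in wildtype (2.21-fold, adjusted p = 2.74e-04). CCHa2, a nutrient-dependent peptide of fat body and gut that acts on insulin-producing cells, read 10.39, 10.55 and 10.59 in CAKO against 9.20, 9.42 and 9.26 in wildtype (2.33-fold, adjusted p = 1.44e-05). Ilp5, an insulin-like peptide of the brain, was near the floor at 3.19, 3.94 and 3.95 in CAKO against 2.37, 2.80 and 2.80 in wildtype (2.05-fold), a call lost when only the 6 fertile arrays were fitted. All of these lay above every wildtype array. By quantitative PCR the study reported a decrease of Ilp5 mRNA with the knockout in OvoD1 females and none in fertile ones. On the arrays the sterile difference of Ilp5 was -0.03. Capa was 1.80-fold higher, a call lost without CAKO replicate 1 or CAKO replicate 3 (0.62 to 0.97 over all fits without 1 array), and, named after their values were seen, Crz was 1.72-fold higher and Mip 1.71-fold lower. Of 13 genes of insulin signaling none was called (1 was lower with no fold threshold). That list holds no insulin-like peptide, and the peptide gene Ilp6 was not among the genes tested here. The study reported a strong decline of Ilp6 mRNA in fertile CAKO females. Among 9 clock genes vri, a repressor of Clk (10.62, 10.61 and 10.74 in CAKO against 9.41, 9.53 and 9.94 in wildtype, 2.04-fold), and the blue light receptor gene cry (8.36, 8.21 and 8.03 against 7.42, 7.64 and 7.51, 1.60-fold) were higher, cry not with arrays centred on muscle and photoreceptor genes. ninaD, a scavenger receptor for carotenoid uptake, was 2.69-fold higher (7.65, 7.35 and 8.0 in CAKO against 6.0, 6.68 and 6.03 in wildtype).

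The immune lists were short, and few genes were called in each. The shares called higher were 9.52% of antimicrobial peptide, 17.6% of hemocyte and 42.9% of peptidoglycan recognition genes, against 4.01% over all genes. Of 21 antimicrobial peptide genes, Drsl4 (12.02, 12.39 and 11.93 in CAKO against 10.38, 10.88 and 10.34 in wildtype, 2.98-fold) and Drsl5 (12.03, 12.25 and 11.85 against 11.12, 11.16 and 11.22, 1.84-fold), both of the drosomycin family, were called, and none was lower. Of 17 hemocyte genes 3 were higher and 1 lower. Hml, of plasmatocytes, read 9.06, 9.14 and 8.73 in CAKO against 8.04, 8.33 and 8.32 in wildtype (1.68-fold), and PPO2, a prophenoloxidase of crystal cells, read 7.68, 7.64 and 7.19 against 6.47, 6.87 and 6.56 (1.83-fold). The call of Hml was lost with arrays centred on muscle and photoreceptor genes, and that of PPO2 when only the 6 fertile arrays were fitted. The rise of PPO1 (2.03-fold) and the fall of NimC1 (1.5-fold) were lost without 4 and 3 single arrays. Peptidoglycan recognition genes had 3 of 7 higher, PGRP-LA (7.78, 7.84 and 7.84 in CAKO against 7.24, 7.12 and 7.16 in wildtype), PGRP-SC2 and PGRP-LF, and the last 2 were not called without wildtype replicate 3. None of the 3 was called with arrays centred on muscle and photoreceptor genes.

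Muscle genes had 3 of 21 higher and none lower, with 19 means above 0 and a median of 0.22. TpnC4, a troponin C of flight muscle, read 11.28, 11.22 and 11.19 in CAKO against 9.93, 10.26 and 10.23 in wildtype (2.13-fold), and Act79B, an actin, read 12.15, 12.10 and 12.10 against 11.39, 11.33 and 11.10 (1.79-fold). The mean over the list was 11.45, 11.30 and 11.29 in CAKO against 10.99, 11.01 and 11.06 in wildtype, and the part of this shift in other lists was not tested. None of 30 neuron genes was called in limma (2 passed the adjusted p with no fold threshold), and the median was 0. The cuticle list had 5 higher and 4 lower of 71 genes: Acp65Aa, of adult cuticle, read 5.61, 5.40 and 5.01 in CAKO against 3.55, 3.55 and 2.72 in wildtype (4.18-fold higher), while Cpr47Eg lay at 2.30, 2.16 and 2.21 in CAKO against 4.25, 4.46 and 4.13 in wildtype (at least 4.16-fold lower). The 4 falls became 7 without CAKO replicate 1 and 8 with arrays centred on muscle and photoreceptor genes. In the iron list Tsf3 rose with Tsf1 (1.72-fold). MsrA, a methionine sulfoxide reductase, was 1.91-fold lower (9.21, 9.10 and 9.34 in CAKO against 9.70, 10.49 and 10.26 in wildtype, not called when only the 6 fertile arrays were fitted), and moon, a regulator of piRNA transcription in the germ line, 2.74-fold higher (7.01, 6.67 and 7.08 against 5.71, 5.55 and 5.13).

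In several lists of protein synthesis and export most means lay below 0 without a call. Cytosolic ribosomal proteins were not among these, with 12 means above and 18 below 0 of 31 genes, a median of -0.01 and 1 gene called lower. Aminoacyl-tRNA synthetases had no call, but 17 of 18 means were lower in CAKO (46.2% over all genes tested) and 11 passed the adjusted p with no fold threshold, where 7.53% of all genes did so downwards. IleRS read 10.81, 10.83 and 10.81 in CAKO against 11.00, 11.07 and 11.08 in wildtype (-0.24 ± 0.02 SE, adjusted p = 3.04e-04). The secretory pathway had 34 of 37 means lower, with 12 genes lower with no fold threshold, among them the chaperone gene Hsc70-3 (13.23, 13.31 and 13.26 in CAKO against 13.46, 13.40 and 13.54 in wildtype). Nuclear pore genes had 18 of 22 means lower and ribosome biogenesis genes 22 of 25, 3 and 5 of them lower and 0 and 1 higher with no fold threshold, and the medians of the synthetase, secretory, pore and biogenesis lists were -0.22, -0.16, -0.16 and -0.22. All 4 medians went further down, to between -0.41 and -0.34, with arrays centred on muscle and photoreceptor genes. Glycolysis went up by as little: 9 of 10 means were higher (44.8% over all genes), 6 with no fold threshold (8.17% over all genes), among them Eno (14.49, 14.43 and 14.48 in CAKO against 14.29, 14.30 and 14.29 in wildtype), but its median of 0.17 became -0.02 under that centring. Cell cycle genes had 27 of 33 means higher at a median of 0.15 (-0.04 under that centring), 1 of them past the adjusted p. No gene was called among 26 proteasome, 25 vacuolar ATPase, 39 DNA replication and 69 mitochondrial ribosome genes, of which 3, 2, 3 and 5 passed the adjusted p with no fold threshold.

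By chromosome the calls were spread over all arms, at 4.53% higher and 2.93% lower of the genes on 2L, 3.96% and 2.18% on 2R, 3.74% and 2.72% on 3L, 4.87% and 2.33% on 3R, 3.08% and 4.62% on chromosome 4, and 2.65% and 1.96% on X. Runs of at least 3 called genes in the same direction, with at most 1 gene not called between 2 of them, numbered 13 for rises with 44 genes and 6 for falls with 19 genes. The maltase row was the longest with 7 called genes. Other runs of rises held CG34040, the gene with the largest rise, next to CG4363 (14.40, 14.28 and 14.37 in CAKO against 13.69, 13.55 and 13.16 in wildtype) and CG4377 (12.87, 12.66 and 12.69 against 11.48, 11.54 and 11.12) on 2R. On 3R the kinase-like genes CG11891, CG11878 and CG10513 (3.98-fold, 3.04-fold and 1.76-fold) formed a run, the last lost without any of 9 arrays, as did Ugt302E1, Ugt302C1 and the esterase-like gene CG4757 (2.08-fold, 1.54-fold and 3.12-fold), with Ugt302C1 lost without CAKO replicate 1 or with arrays centred on muscle and photoreceptor genes. Runs of falls held the eggshell genes Vm26Aa and psd with CG13992 (3.37, 3.54 and 3.25 in CAKO against 4.67, 5.53 and 5.54 in wildtype) on 2L, Alp10 and Alp9 next to spo on 3L, and the hairpin RNA genes hpRNA:CR32207 and hpRNA:CR33940 near CG9451 on 3L. hpRNA:CR33940 read 4.81, 3.51 and 3.65 in CAKO against 7.28, 7.14 and 6.81 in wildtype (8.49-fold lower), and hpRNA:CR32207 read 5.97, 5.32 and 5.11 against 6.93, 7.09 and 6.81.

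The knockout difference in fertile females was then set against that in sterile females, measured on other arrays, by the interaction of knockout and OvoD1 (the sterile minus the fertile difference). The interaction was called for 377 genes (3.78%), 144 upwards (1.44%) and 233 downwards (2.34%). It was called for 144 of the genes higher in fertile females and for 74 of those lower. The interaction contains the fertile difference, so genes called for that difference lean towards an interaction of opposite sign. These counts are therefore no separate support. The sterile pair differed in genetic background by one of the accounts of the study, so fertility and background cannot be told apart in this contrast.

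**Figure D5:**
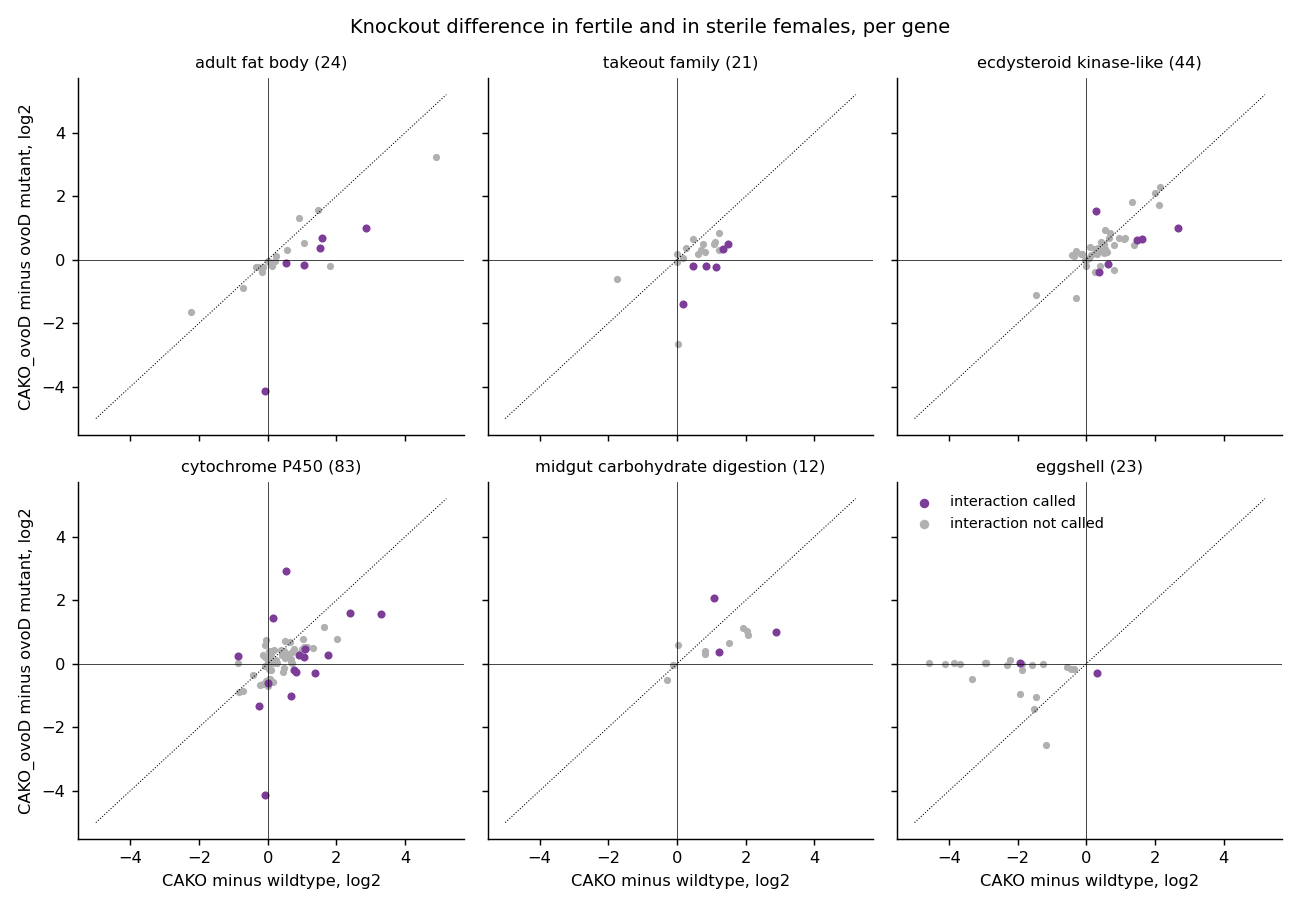
Log2 difference after knockout in fertile females (x axis, CAKO minus wildtype) against sterile females (y axis, CAKO_ovoD minus ovoD mutant), 1 point per gene in 6 lists, purple where the interaction was called, with a dotted line of equal differences. Most takeout genes lie under that line, and most eggshell genes lie near 0 in sterile females, whatever their fall in fertile females. Several eggshell genes, such as Cp15 and yellow-g, read low on the sterile arrays, so that little further fall could show.

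By list, genes were counted in each pair separately, and lists were not tested against each other. Of the takeout family 12 genes were higher in fertile females and 1 in sterile females (2.37% of all genes were higher there), the median being 0.69 and 0.26, and the interaction was called for 6 of 21 genes. Of the carbohydrate digestion genes 9 were higher in fertile and 4 in sterile females (medians 1.16 and 0.62), with the interaction called for 3 of 12: tobi rose by 2.87 and 0.99, Mal-A6 by 1.23 and 0.38, and the maltase gene Mal-B1, named after its values were seen, by 1.09 and 2.07. The ecdysteroid kinase-like genes had 17 and 13 higher (medians 0.45 and 0.32) and the interaction called for 6 of 44. For CG16898 the difference was 2.68 in fertile and 1.01 in sterile females (interaction -1.67, adjusted p = 0.00261), and for CG11893 it was 2.14 and 2.28 (interaction 0.14, adjusted p = 0.907). Among fat body genes Pepck1 differed by 1.07 in fertile and -0.17 in sterile females (interaction -1.24, adjusted p = 0.0181) and Tsf1 by 1.51 and 0.38 (interaction -1.13, adjusted p = 0.00255). Kr-h1, the JH target, differed by -1.77 in fertile and -0.10 in sterile females (interaction 1.67, adjusted p = 0.0209), although jhamt was lower in both (-1.53 and -2.34, interaction -0.82, adjusted p = 0.2). Akh, 1.14 and 0.02 (interaction adjusted p = 0.00599), and CCHa2, 1.22 and -0.15 (adjusted p = 2.19e-04), also differed between the pairs. Of the tyrosine enzymes Hpd passed, at 1.07 in fertile and 0.30 in sterile females (interaction -0.77, adjusted p = 0.0481), and hgo and Faa did not (interaction adjusted p = 0.258 and 0.093), with differences of 1.33 and 0.76, and 0.93 and 0.41. hll, 2.67 in fertile and -1.22 in sterile females, had an interaction of -3.90 (adjusted p = 0.00209).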

How the data were processed

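RNA of whole females was hybridised to Affymetrix Drosophila 2.0 arrays, 3 per genotype. The authors deposited log2 expression values, background-adjusted and normalized with GCRMA per the labels and methods. The table holds 18952 probe sets: 13647 named a single gene, 402 named more and 4903 had no gene, and 13544 of those with a single gene matched the RefSeq gene table. Probe sets in the first quartile (25%) of the mean in all 4 genotypes were left out, and 13871 were kept. limma 3.58.1 in R 4.3.3 fitted 1 mean per genotype to all 12 arrays (8 residual degrees of freedom, eBayes with trend), and Benjamini-Hochberg adjustment covered every probe set retained. A gene was called at adjusted p under 0.05 and at least 1.5-fold if a probe set passed and none passed in the other direction, and its printed values come from its probe set with the highest mean. A level within 0.2 of the floor (2.13) is a bound, so such falls are given as "at least". Arrays are labelled biological replicates, no 2 were identical, and p-values measure the spread between them. Members and lists were chosen with earlier results of these data known. Lists are described by counts and medians, with no test. Genes were named by rule: the 15 largest rises and falls, up to 4 called members of each list, members of neighbouring runs and a few by abundance. The fit was checked on simulated data with normal noise of equal spread in all genotypes and changes added only to well-expressed probe sets of small spread. That check does not cover calls at the floor or genes with wide scatter in 1 genotype. Alternatives covered the test, fold threshold, filter, probe sets, centring, array weights, replicate block and left-out arrays.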

Additional observations from a re-analysis of the deposited data

Results flagged for a closer look

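Each gene here was singled out because the knockout difference itself differed between sterile and fertile females in limma's interaction test, with the adjusted p below 0.05 and a size of 1.5-fold or more. Values are the log2 interaction, the sterile minus the fertile difference, so a negative value beside a gene that rose in fertile females means a smaller rise, or a fall, in sterile females. These genes were drawn from those named above, largely for a change in fertile females. The interaction contains that change, so it leans towards the opposite sign. Groups of 3 arrays were too small for a test of single outlying arrays.

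Among genes of fat body, storage and hemolymph these were Lsp2 (-5.37), Pepck1 (-1.24), Tsf1 (-1.13), LpR2 (-0.63) and Hml (-0.75). Among takeout family genes they were CG7916 (-1.39), CG7968 (-0.97) and Jhbp11 (-1.01), with the neighbouring gene CG8997 (-1.05). Digestive enzymes included tobi (-1.88), Mal-A6 (-0.85), mag (-1.32), Mal-B1 (0.98), CG1304 (1.62) and CG17192 (3.07), and alkaline phosphatases Alp9 (2.24), Alp10 (1.73) and Alp2 (1.67). For Mal-B1 and CG1304, unlike the other digestive genes that rose, the value is positive and the rise was larger in sterile females.

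Genes of hormone signals were Kr-h1 (1.67), Akh (-1.12), CCHa2 (-1.37) and Mip (1.13). Enzymes that modify lipophilic compounds or amino acids were Cyp28d1 (-1.50), GstT4 (-0.72), Ugt302E1 (-1.65), Ugt37A2 (-0.81), AOX1 (-0.92) and Hpd (-0.77), with the kinase-like genes CG16898 (-1.67) and CG11878 (-0.97). Immune genes were Drsl4 (-1.02), PGRP-LA (-0.62) and PGRP-LF (-0.84). Lipid genes were S1P (0.81) and eloF (0.74).

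Genes that fell in fertile females and differed by under 0.2 in sterile females included Osi6 (7.95), Osi15 (4.64), TwdlN (4.02), nur (3.24), St4 (3.50), CG40298 (3.59), CG31926 (3.19) and Cpr47Eg (2.09). On the sterile arrays nur read 3.24 to 3.25 and the others 2.13 to 2.47, at or near the floor. Little further fall could show there, so these interactions largely restate the fall in fertile females. Eggshell and germ line genes were Vm32E (1.94) and c(2)M (0.69), and a spermathecal protease was CG32277 (-1.13). Vm32E and c(2)M were also near the floor on the sterile arrays, at 2.28 to 2.49 and 2.41 to 2.46. Others were CG13992 (1.94), CG34040 (-4.33), CG4363 (-0.73), CG4377 (-0.84), acs (-2.63), CG13311 (-3.35), CG15254 (-3.29), CG13032 (-2.98), CG31955 (-2.10), CG2444 (-1.97), hll (-3.90), phu (4.22), CG33109 (1.24), CG9451 (0.93), CG4757 (-1.26), ninaD (-1.96), moon (-1.56) and MsrA (1.36).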

How the results depend on the processing

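Of 9968 genes, 400 were higher and 242 lower in CAKO, 466 were called in sterile females and 377 in the interaction. Adjusting the methods' t-test for multiple tests gave 170 higher, 60 lower and 148 sterile calls, and its unadjusted form gave 710 interaction calls. With no fold threshold the counts were 814, 751, 1304 sterile and 644 interaction genes, and at 2-fold they were 176, 119, 175 and 189. Centring on muscle and photoreceptor genes gave 296 higher, 563 lower and 976 sterile genes, and fitting only the 6 fertile arrays gave 140 lower genes. The other alternatives moved no such count by more than 1.5 times. Leaving out single arrays gave 336 to 404 higher, 186 to 261 lower, 386 to 471 sterile and 257 to 362 interaction genes, lowest without CAKO replicate 1 for rises and the interaction, without wildtype replicate 3 for falls and without CAKO_ovoD replicate 3 for sterile females. Of the 138 called genes named in the text, 119 kept their call whichever single array was left out. None was called in the opposite direction under any alternative run, the only kind of turn that was counted. With the replicate number as a block there were 386 higher, 214 lower, 424 sterile and 321 interaction genes. Same-numbered CAKO and wildtype arrays deviated together by correlations of 0.15, -0.12 and -0.16, so the numbers were not taken to pair arrays. Shares of promoters with motifs were planned and not run. Low values limit the rest: near the floor a change is compressed by the background adjustment, and the number of arrays limits precision.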
